A study of Mus musculus with 16 samples.

Results

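The genes described here are the inducible subunits of the proteasome and of its interferon-inducible activator, set against the constitutive catalytic subunits of the same particle. They were chosen by name: Psmb8, Psmb9, Psmb10, Psme1 and Psme2 on the inducible side, and Psmb5, Psmb6 and Psmb7 on the constitutive side. These are 8 of the 54532 entries of the count table. All 8 passed the filter on low counts, as did 17736 entries in all.

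The proteasome is the barrel-shaped protease that degrades ubiquitin-tagged proteins, and its core holds catalytic subunits with different cleavage preferences, encoded by Psmb6 (beta1), Psmb7 (beta2) and Psmb5 (beta5). Interferon signalling switches on the replacements Psmb9 (beta1i), Psmb10 (beta2i) and Psmb8 (beta5i), which are built into newly made cores in place of the constitutive forms and give the immunoproteasome. Psme1 and Psme2 encode the alpha and beta chains of PA28, a ring that caps the core, and the peptides made this way feed the loading of MHC class I. In brain, microglia are a known site of immunoproteasome expression.

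Bulk RNA of brain tissue was sequenced in 16 libraries, 4 for each of 4 groups of female mice, all 9 months old. Mice either carried Ch25h (Ch25h+/+) or had it deleted (Ch25h-/-), and each genotype came with tau (Tau+) or without it (Tau-). Ch25h encodes cholesterol 25-hydroxylase, an interferon-inducible enzyme that turns cholesterol into an oxysterol. What Tau+ stands for beyond the name, such as a transgene's line or promoter, is not given in the labels. The study's title ties STING, interferon and CH25H to tau pathology, and the design asks what tau does with and without Ch25h. The tissue is frontal cortex in the sample records and hippocampus in the series text.

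Depth was 15530352 to 25602500 counts per library. Ch25h itself had 5 to 30 counts in the 8 Ch25h+/+ libraries and 0 counts in the 8 Ch25h-/- libraries, and a count of 0 allows up to 3 counts. Of 6 cortical markers and 7 hippocampal markers, all were in the table, with summed levels of 629 to 851 and 314 to 499 CPM (counts scaled to library size), and did not single out 1 region. In 7 of the 8 Ch25h-/- libraries the ribosomal RNA entry CT010467.1 exceeded 1000 CPM of total counts (2289 to 5684), against 111 to 475 in the other 9 libraries, which include Ch25h-/- Tau+ replicate 1. Every comparison of Ch25h-/- with Ch25h+/+ therefore also compares these classes of library, with replicate 1 as the single Ch25h-/- library outside the rich class. Separate animals are not stated, so p-values measure the spread between these libraries. In bulk RNA, fewer cells of a type and less RNA per cell cannot be told apart.

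RefSeq promoter sequences (GRCm38.p6) were found for 7 of the 8 genes; Psmb7 was not matched. They were searched on both strands, in the 250 bases before the start, for the interferon-stimulated response element as GAAA, any 2 bases and GAAA again, the gamma-activated site as TTCNNNGAA, and the core of the antioxidant response element as TGACNNNGC. These letters occur in 2.98%, 7.02% and 10.2% of 32851 promoters. The Psmb8 sequence is shown because Psmb8 had the largest tau effect of the 8 genes in Ch25h+/+ animals; its capitals mark the match to the gamma-activated site, 97 to 89 bases before the RefSeq start (chr17:34198088-34198116, + strand, inside the GENCODE gene model of Psmb8). The Psmb5 and Psmb6 sequences are shown because these constitutive partners behaved differently from each other; capitals mark the antioxidant-type match, 47 to 39 bases before the start of Psmb5 (chr14:54618023-54618245, - strand) and 9 to 1 bases before that of Psmb6 (chr11:70525107-70525356, + strand).
Psmb8: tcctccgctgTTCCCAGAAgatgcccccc
Psmb5: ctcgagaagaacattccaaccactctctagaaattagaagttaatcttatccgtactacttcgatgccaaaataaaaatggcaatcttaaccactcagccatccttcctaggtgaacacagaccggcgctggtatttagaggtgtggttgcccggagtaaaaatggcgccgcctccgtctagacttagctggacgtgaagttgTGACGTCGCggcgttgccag
Psmb6: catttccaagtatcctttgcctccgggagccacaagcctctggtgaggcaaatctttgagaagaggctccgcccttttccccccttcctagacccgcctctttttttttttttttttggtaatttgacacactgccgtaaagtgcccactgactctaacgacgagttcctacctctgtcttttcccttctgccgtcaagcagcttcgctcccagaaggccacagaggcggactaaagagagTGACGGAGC
None of the 3 letter patterns was found in the windows of Psmb9, Psmb10, Psme1 or Psme2. The windows of Psmb9 (chr17:34187331-34187580) and Psme1 (chr14:55578244-55578493) also lie inside the GENCODE gene models of these genes. The bases before those gene models were not searched. Psmb9 and Tap1, a peptide transporter gene, start 226 bases apart on opposite strands in RefSeq.

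The genes lie on 5 chromosomes (GRCm38, GENCODE M21). Psmb8 (chr17:34197721-34201454) and Psmb9 (chr17:34181987-34187764) flank Tap1 in the MHC region, and Psme1 (chr14:55578123-55581529) and Psme2 (chr14:55587441-55591113) are neighbours near Psmb5 (chr14:54614119-54618022). Psmb10 lies at chr8:105935735-105938444, Psmb6 at chr11:70525367-70527858 and Psmb7 at chr2:38588036-38644087. Several gene models overlap a neighbour on the opposite strand: Psmb9 with Tap1, Psmb8 with Gm20496, Psmb10 with Gm16156, Psme1 with Emc9 and Psmb7 with Nek6. The use of strand in counting is not given in the sources used here, so reads of such pairs cannot be told apart, and Psme2 has a near copy, Psme2b, listed at 2.498 to 9.08 CPM.

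Levels between genes were compared as CPM per kilobase of transcript, on library sizes scaled by the trimmed mean of M-values (TMM). In Ch25h+/+ Tau- brain the order was Psmb6 at 80.3 ± 2.58, Psmb5 at 65.5 ± 3.23, Psmb7 at 47.4 ± 2.86, Psme1 at 31.1 ± 3.47, Psmb10 at 30.7 ± 3.57, Psme2 at 10.9 ± 2.79, Psmb9 at 1.51 ± 0.475 and Psmb8 at 1.35 ± 0.356 (SD, n = 4). Psme1 and Psmb10, and Psmb9 and Psmb8, did not differ beyond their spread. The inducible genes lay in 2 tiers: Psmb10 and PA28 were within an order of magnitude of the constitutive genes, and Psmb8 and Psmb9 rested on 19 to 140 counts per library over all groups. The order was the same in all 4 groups except that Psmb8 and Psmb9 exchanged places in Ch25h+/+ Tau+ and Ch25h-/- Tau-, and Psmb7 stood above Psmb5 in Ch25h-/- Tau+. Psmb11, the thymus-restricted subunit, had 0 to 17 counts in a library.

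**Figure D1:**
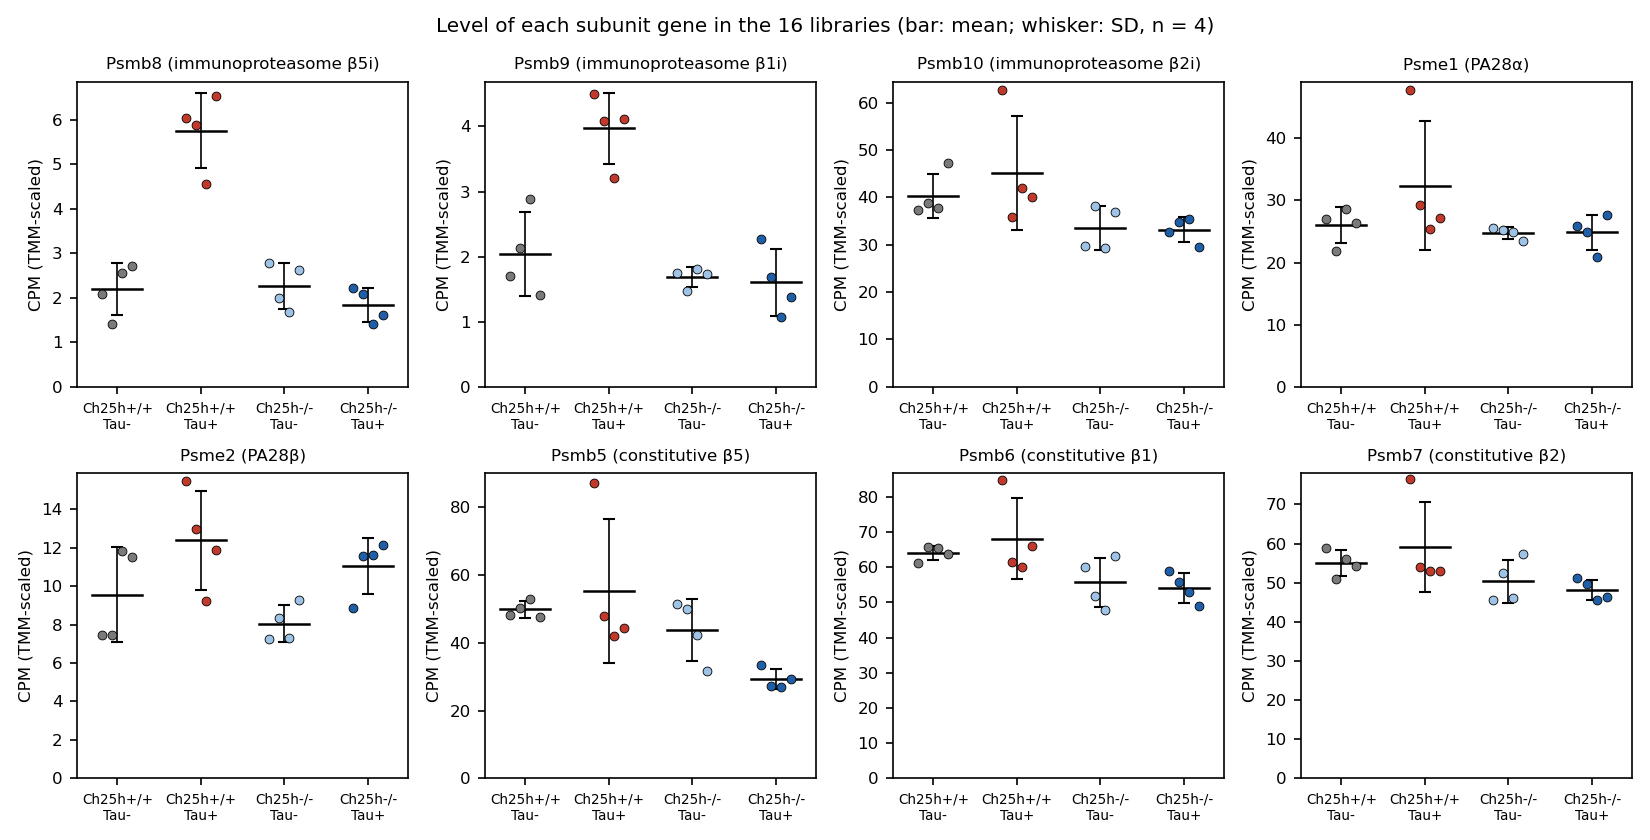
CPM (TMM-scaled, y axis) of the 8 genes in each of the 16 libraries by group, 1 point per library, with the mean (bar) and SD (whisker, n = 4). Psmb8 and Psmb9 are high in the 4 Ch25h+/+ Tau+ libraries only, and 1 Ch25h+/+ Tau+ library (replicate 1) is the highest of its group for the 3 constitutive genes, Psmb10, Psme1 and Psme2.

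With Ch25h present, tau went with more of the beta5i and beta1i transcripts and with no called change in the constitutive genes. Psmb8 read 2.08, 1.42, 2.55 and 2.72 CPM in the Ch25h+/+ Tau- libraries and 6.04, 5.89, 4.56 and 6.54 CPM in the Ch25h+/+ Tau+ libraries. Every Tau+ library was above every Tau- library. Psmb8 rose 2.61-fold, or 1.38 on the log2 scale (SE 0.22, 95% interval 0.93 to 1.84), with an adjusted p of 0.0014 in edgeR's quasi-likelihood test, adjusted with the Benjamini-Hochberg method over all genes tested.

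Psmb9 read 1.71, 2.13, 2.89 and 1.41 CPM in Ch25h+/+ Tau- and 4.50, 4.08, 3.21 and 4.11 CPM in Ch25h+/+ Tau+. The groups again did not overlap. Psmb9 rose 1.94-fold, or 0.96 on the log2 scale (SE 0.23), with an adjusted p of 0.0435 in edgeR. This call lies near the threshold of 0.05: it was lost with only the 8 libraries compared (adjusted p 0.0888), with offsets for GC content (0.0509) and in 12 of 16 fits that left out 1 library, with adjusted p of 0.0152 to 0.171 over the 16. It held without replicate 3 of either Ch25h+/+ group and without Ch25h-/- Tau+ replicate 1 or 3.

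The inducible beta2i subunit did not follow them. Psmb10 read 37.3, 38.7, 37.8 and 47.2 CPM in Ch25h+/+ Tau- and 62.8, 35.8, 42.0 and 40.01 CPM in Ch25h+/+ Tau+, and the groups overlapped. Its log2 fold change was 0.16 (SE 0.14, adjusted p 0.874 in edgeR, 95% interval -0.14 to 0.47). The PA28 chains also missed the threshold, with log2 fold changes of 0.31 for Psme1 (adjusted p 0.563) and 0.37 for Psme2 (adjusted p 0.553). Psme2 lay between 7.44 and 11.8 CPM without tau and between 9.20 and 15.5 CPM with it.

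The constitutive genes gave small values. Psmb5, the beta5 gene, read 48.3, 50.4, 53.0 and 47.6 CPM without tau and 87.0, 48.0, 42.0 and 44.5 CPM with it, a log2 fold change of 0.15 (adjusted p 0.939 in edgeR). Psmb6 and Psmb7 gave 0.09 and 0.10 (adjusted p 0.935 and 0.915), with 95% intervals of -0.14 to 0.31 and -0.13 to 0.33. Ch25h+/+ Tau+ replicate 1 was the highest of the 16 libraries for Psmb5, Psmb6, Psmb7, Psmb10, Psme1 and Psme2. Without it the tau effects on the log2 scale were -0.15 for Psmb5, -0.03 for Psmb6, -0.04 for Psmb7, -0.03 for Psmb10 and 0.07 for Psme1, while Psmb8 stayed at 1.37 (adjusted p 0.00334). All 3 constitutive values were also negative in limma-voom.

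Of the 5 inducible genes 2 were called higher, both with no overlap, where 1.47% of all genes tested were called higher and 3.89% were higher with no overlap. Of the 3 constitutive genes 0 were called, where 1.56% of all genes were called in either direction. No constitutive gene had an unadjusted p under 0.05 in edgeR, against 9.38% of all genes. DESeq2 and limma-voom called 0 of the 3, where they called 2.39% and 2.81% of all genes. With 3 genes, counts of 0 are near the background. The median log2 fold change was 0.37 over the 5 inducible genes, 0.10 over the 3 constitutive genes and -0.01 over all genes tested. The constitutive median was -0.04 without Ch25h+/+ Tau+ replicate 1, and 0.15 without replicate 2 or 4 of that group.

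No other gene of the particle was called with tau in Ch25h+/+ animals. Of 31 further 20S and 19S genes, 30 were tested (Psma8, a testis subunit, was not), 0 were called in edgeR, DESeq2 or limma-voom, where 1.56%, 2.39% and 2.81% of all genes tested were, so a count of 0 is near the background. At an unadjusted p under 0.05 were 0 of the 30, against 9.38% of all genes. Their log2 fold changes ran from -0.09 (Psmd11, a lid subunit) to 0.14 (Psmc2, a base ATPase), with a median of 0.03. Psma2 of the alpha ring had 0.09 and Psmb3, a noncatalytic beta subunit, 0.09. None of the 3 other regulators (Psme3, Psme4 and Psmf1) or 8 assembly chaperones tested was called by edgeR in any of the 5 comparisons. In these comparisons edgeR called 0.0338% to 3.55% of all genes tested, so counts of 0 are near the background. Psmd9 had the smallest p of the chaperones with tau in Ch25h+/+ animals (log2 fold change -0.14).

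Several genes that act with the immunoproteasome were called in the same comparison. Tap1, which with Tap2 carries peptides into the endoplasmic reticulum, read 2.62 to 5.31 CPM in Ch25h+/+ Tau- and 7.34 to 9.73 CPM in Ch25h+/+ Tau+, and rose by 1.19 on the log2 scale (SE 0.18, adjusted p 0.00137 in edgeR). B2m, the light chain of MHC class I, rose by 0.93 (adjusted p 0.000136) and Tapbp, the loading chaperone tapasin, by 0.46 (adjusted p 0.0142), which makes 3 of 5 genes of peptide transport and loading called higher in edgeR, against 1.47% of all genes tested. Tap2 (0.43, adjusted p 0.132) and Erap1 (0.34, adjusted p 0.364) missed the threshold there. DESeq2 called Tap2 as well (0.0368), and limma-voom called all 5 (0.0409 for Tap2 and 0.0399 for Erap1), where these tools called 2.39% and 2.81% of all genes in either direction.

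Factors known to act on proteasome genes include Nlrc5, Irf1 and Nfe2l1. With tau in Ch25h+/+ animals Nlrc5, the transactivator of MHC class I genes, rose by 1.27 on the log2 scale (SE 0.29, adjusted p 0.0296 in edgeR), from 1.01 to 1.64 CPM to 1.97 to 4.42 CPM. Irf1, an interferon regulatory factor that switches on immunoproteasome genes, gave 0.49 with no overlap of the groups. It missed the threshold in edgeR (adjusted p 0.0612) and passed in DESeq2 (0.0222), in limma-voom (0.0225) and in edgeR without Ch25h+/+ Tau+ replicate 2 (0.0314). The Nlrc5 call was lost with only the 8 libraries compared (adjusted p 0.0735), and in 5 of 16 fits that left out 1 library, each of them a Ch25h+/+ library. The Tap1 and B2m calls held in all 16, and the Tapbp call was lost in 3 (without Ch25h+/+ Tau- replicate 1 or 2 or Ch25h+/+ Tau+ replicate 4, up to 0.0633).

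**Figure D2:**
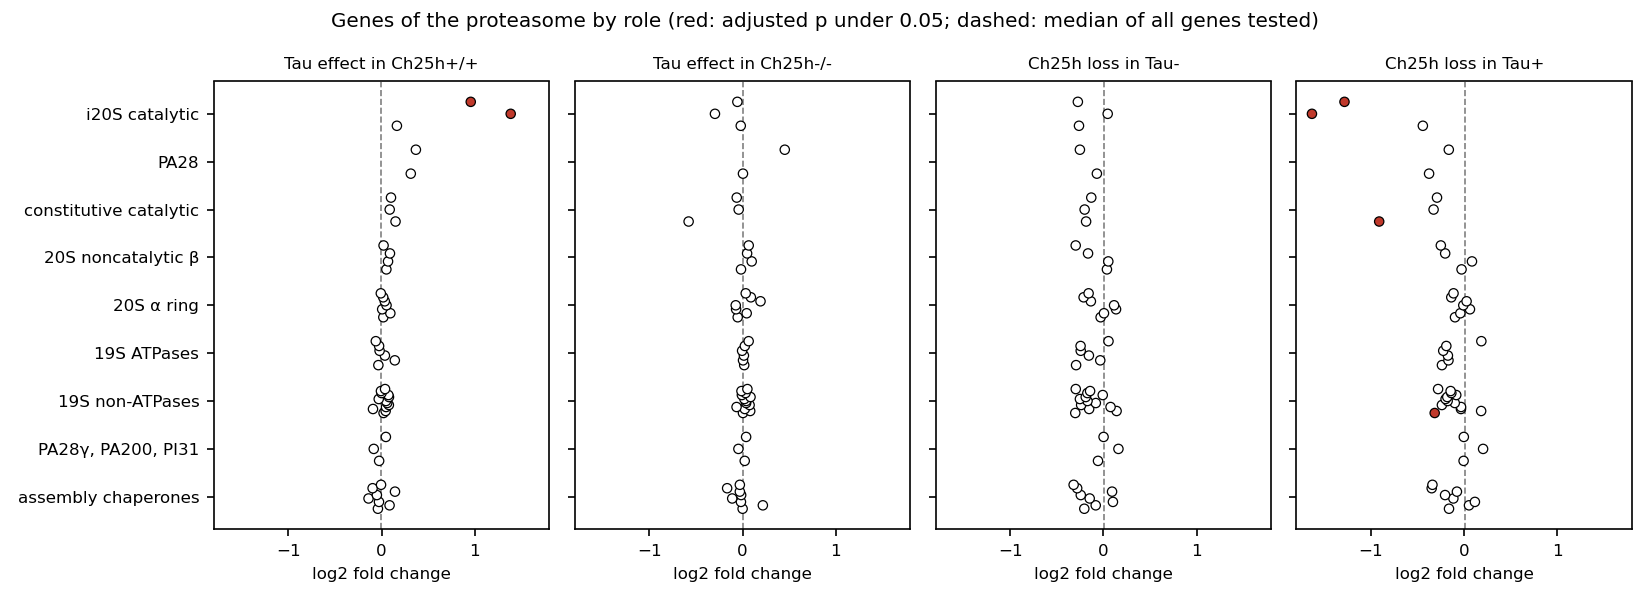
Fitted log2 fold change (x axis) of every tested gene of the proteasome, grouped by role (y axis), in the 4 pairwise comparisons, 1 point per gene; red marks an adjusted p under 0.05 in edgeR and the dashed line the median of all genes tested. The points called with tau in Ch25h+/+ are Psmb8 and Psmb9, and those called with Ch25h loss in Tau+ are Psmb8, Psmb9, Psmb5 and Adrm1.

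Without Ch25h, tau left none of the 8 genes past the threshold. Psmb8 read 2.77, 1.9999, 1.69 and 2.62 CPM in Ch25h-/- Tau- and 2.23, 2.08, 1.42 and 1.62 CPM in Ch25h-/- Tau+, and the groups overlapped. Its log2 fold change was -0.30 (SE 0.23, 95% interval -0.79 to 0.19, adjusted p 1 in edgeR). Psmb9 gave -0.06 (95% interval -0.59 to 0.48) and Psmb10 -0.02 (95% interval -0.33 to 0.29). DESeq2 and limma-voom also called 0 of the 8 genes here. Of all genes tested, edgeR called 0.0395%, DESeq2 0.0789% and limma-voom 0.0338%, so a count of 0 is near the background.

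An unadjusted p under 0.05 was found for 2 of the 8 genes, with opposite signs, and for 3.68% of all genes tested. Psme2 read 7.23, 8.35, 7.29 and 9.26 CPM in Ch25h-/- Tau- and 8.88, 11.6, 11.6 and 12.1 CPM in Ch25h-/- Tau+, a log2 fold change of 0.45 (unadjusted p 0.0232, adjusted p 1 in edgeR). Psmb5 read 51.5, 49.998, 42.2 and 31.6 CPM in Ch25h-/- Tau- and 33.5, 27.3, 27.0 and 29.4 CPM in Ch25h-/- Tau+, a log2 fold change of -0.58 (unadjusted p 0.00694, adjusted p 1). Psmb6 and Psmb7 gave -0.04 and -0.06. Of the 30 further 20S and 19S genes tested, 0 were called and 0 had an unadjusted p under 0.05, both near the background, with a median of 0.03 and the smallest p at Psma5 (0.19). The other lists had their smallest p at Psmd10 (0.22) and Psme4 (-0.04). None of these 3 factors and none of the peptide loading genes was called in this comparison by edgeR, DESeq2 or limma-voom, with 0.28 for Tap1, -0.18 for Irf1 and -0.0027 for Nlrc5.

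Ch25h loss without tau called none of the 8 genes. Levels were 1.69 to 2.77 CPM for Psmb8 in Ch25h-/- Tau- against 1.42 to 2.72 CPM in Ch25h+/+ Tau-, and 0 of the 8 genes were without overlap, where 16.2% of all genes tested were. Log2 fold changes ran from -0.27 for Psmb9 (adjusted p 0.554 in edgeR) to 0.05 for Psmb8 (adjusted p 0.927). The Psmb9 value lay between -0.41 and -0.05 in the fits that left out 1 library. At an unadjusted p under 0.05 were 0 of the 8, against 20.9% of all genes tested. Of the 8 log2 fold changes 1 was positive, where 51.4% of all genes tested were. DESeq2 and limma-voom also called 0 of the 8. Of all genes tested, edgeR called 1.03%, DESeq2 5.91% and limma-voom 7.83%, so a count of 0 is near the background.

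Of the 30 further 20S and 19S genes in that comparison, 22 had a negative log2 fold change and 8 a positive one, where 51.4% of all genes tested were positive, with a median of -0.15 against 0.01 over all genes tested. In edgeR 0 of them were called and 12 had an unadjusted p under 0.05, as did 20.9% of all genes tested. DESeq2 called 2 of the 30, against 5.91% of all genes, and limma-voom 5, against 7.83%. The smallest p of the 19S subunits belonged to Adrm1, the ubiquitin receptor Rpn13 (-0.30, adjusted p 0.0702), and Psmc1, Psmb4 and Psma6 gave -0.29, -0.30 and -0.21. In edgeR the partner genes were not called either, with -0.33 for Tap2, 0.15 for Tap1, -0.20 for Nfe2l1, 0.16 for Irf1 and 0.09 for Nlrc5. DESeq2 and limma-voom called Nfe2l1, the factor that raises constitutive subunits when the proteasome is impaired, lower (adjusted p 0.0304 and 0.0412) and none of the others. Pomp, the maturation chaperone, gave -0.20 and Psme4 0.16. All 4 Ch25h-/- Tau- libraries were rich in ribosomal RNA and no Ch25h+/+ Tau- library was, and the part of that difference in the result cannot be told apart from genotype.

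With tau, animals without Ch25h had lower Psmb8, Psmb9 and Psmb5 than animals with it. Psmb8 was 6.04, 5.89, 4.56 and 6.54 CPM in Ch25h+/+ Tau+ and 2.23, 2.08, 1.42 and 1.62 CPM in Ch25h-/- Tau+, with no overlap. It fell by 1.63 on the log2 scale (SE 0.22, 95% interval -2.10 to -1.17, adjusted p 0.000708 in edgeR), to 0.322 of the Ch25h+/+ Tau+ level. Psmb9, at 2.27, 1.69, 1.08 and 1.37 CPM in Ch25h-/- Tau+, fell by 1.28 (SE 0.24, adjusted p 0.00886). The Ch25h+/+ Tau+ libraries are the same as those of the tau effect in Ch25h+/+.

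Psmb10 was 32.7, 34.8, 35.5 and 29.6 CPM in Ch25h-/- Tau+, just below the 35.8 to 62.8 CPM of Ch25h+/+ Tau+. Its log2 fold change of -0.44 missed the threshold in edgeR (adjusted p 0.085), and passed in DESeq2 (0.0358), with no filter (0.0306) and when Ch25h+/+ Tau+ replicate 2 was left out (0.0322). With Ch25h+/+ Tau+ replicate 1 left out it was -0.25 (adjusted p 0.242). Psme1 gave -0.38 (adjusted p 0.152), or -0.14 without that library (0.485). Psme2 gave -0.17 (adjusted p 0.612), or -0.05 without that library (0.916). Leaving out Ch25h-/- Tau+ replicate 1 gave -0.09 for Psme2 (0.808), and leaving out Ch25h+/+ Tau+ replicate 3 gave -0.28 (0.335).

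On the constitutive side Psmb5 stood out. It was 87.0, 48.0, 42.0 and 44.5 CPM in Ch25h+/+ Tau+ and 33.5, 27.3, 27.0 and 29.4 CPM in Ch25h-/- Tau+, with no overlap. It fell by 0.91 on the log2 scale (SE 0.19, adjusted p 0.0165 in edgeR), and by 0.62 without Ch25h+/+ Tau+ replicate 1 (adjusted p 0.0203). Its call was lost without Ch25h-/- Tau+ replicate 3 (0.0628) or replicate 4 (0.0507), and with only the 8 libraries compared (0.077).

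Psmb6 was 48.9 to 58.8 CPM in Ch25h-/- Tau+ against 60.0 to 84.9 CPM in Ch25h+/+ Tau+, and Psmb7 was 45.7 to 51.1 against 52.9 to 76.4 CPM. Neither pair overlapped, and neither log2 fold change passed the threshold in edgeR (-0.33, adjusted p 0.0828, and -0.29, adjusted p 0.121). Psmb6 passed in DESeq2 (0.0381), and on leaving out Ch25h-/- Tau+ replicate 1 (0.0469) or Ch25h+/+ Tau+ replicate 2 (0.0466). Without Ch25h+/+ Tau+ replicate 1, Psmb6 gave -0.21 (0.21) and Psmb7 -0.15 (0.324).

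Of the 5 inducible genes 2 were called lower and of the 3 constitutive genes 1, where 2.40% of all genes tested were called lower; 3 of 5 and 3 of 3 were lower with no overlap, against 5.74% of all genes. The median log2 fold change was -0.44 over the inducible genes and -0.33 over the constitutive genes, against 0.00 over all genes tested. Without Ch25h+/+ Tau+ replicate 1 these medians were -0.25 and -0.21. Beside these calls stands the class of ribosomal RNA-rich libraries, which holds 3 of the 4 Ch25h-/- Tau+ libraries and no Ch25h+/+ library. With that class as a covariate the log2 fold changes were -1.36 for Psmb8 (adjusted p 0.437), -0.80 for Psmb9 (0.976) and -0.72 for Psmb5 (0.976), so no call was left among the 8 genes and 10 were left among all genes. In that fit Ch25h-/- Tau+ replicate 1 alone separates genotype from class. With the log2 share of CT010467.1 as a covariate, chosen after seeing the data, Psmb8 kept its call (-1.61, 0.0153), and Psmb9 (-1.03, 0.209) and Psmb5 (-0.81, 0.317) did not. Ch25h-/- Tau+ replicate 1, which lies outside the class, read 2.23 CPM for Psmb8, 2.27 for Psmb9 and 33.5 for Psmb5. Each of these values lay below all 4 Ch25h+/+ Tau+ libraries, and each was also the highest of the Ch25h-/- Tau+ group.

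**Figure D3:**
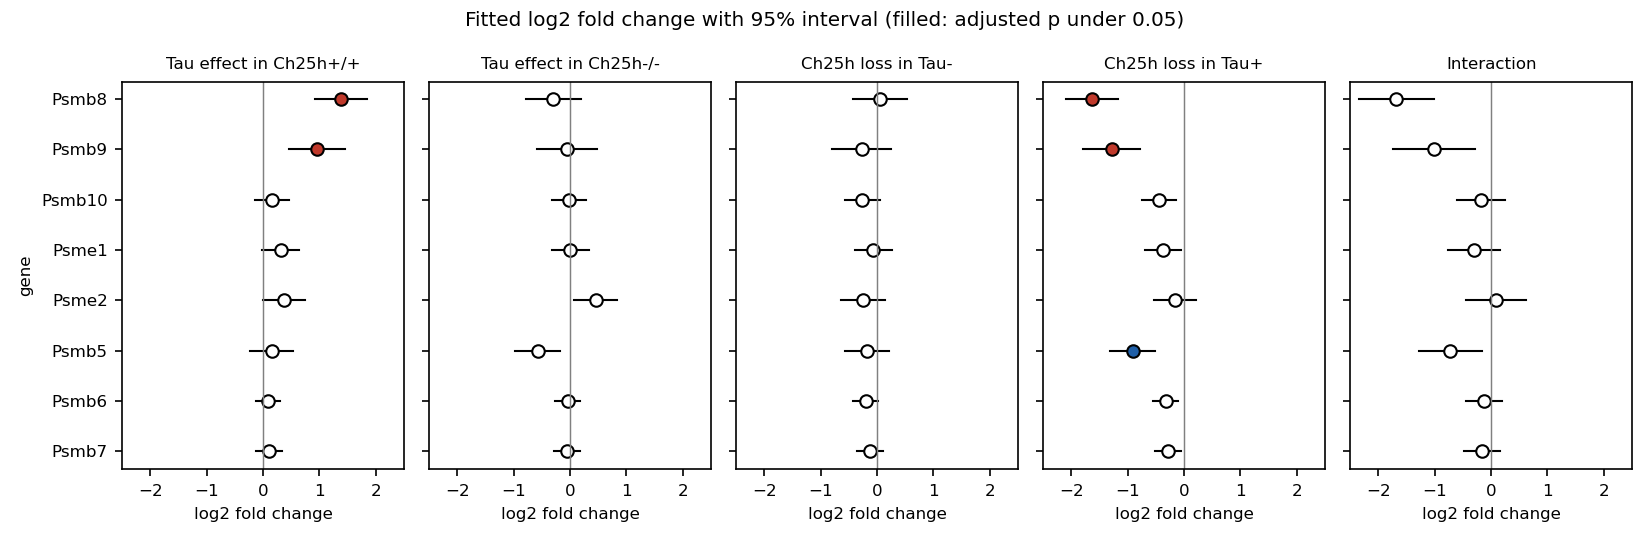
Fitted log2 fold change (x axis) of the 8 genes (y axis) in the 5 comparisons, with the 95% interval as a line; a filled point has an adjusted p under 0.05 in edgeR, red for inducible and blue for constitutive genes. Psmb8 lies at 1.38 with tau in Ch25h+/+, -1.63 with Ch25h loss in Tau+ and -1.68 for the interaction, which is not filled.

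Tap1 (-0.75, adjusted p 0.0338 in edgeR), Tap2 (-0.67, 0.0114), Tapbp (-0.47, 0.0156) and B2m (-0.61, 0.00854) fell with Ch25h loss in Tau+ animals, 4 of the 5 genes of peptide transport and loading, where 2.40% of all genes tested were called lower. Irf1 (-0.50, 0.037) and Nlrc5 (-1.18, 0.036) fell as well. Of 30 further 20S and 19S genes edgeR called 1, Adrm1 (-0.32, adjusted p 0.0462), where it called 3.55% of all genes tested. At an unadjusted p under 0.05 were 10 of the 30, against 23.9% of all genes, and the median over the 30 was -0.14. Psmc1 (-0.24), Psmb4 (-0.25), Psma6 (-0.14), Psmg3 (-0.35) and Psme4 (0.20) had the smallest p of their groups and were not called in edgeR, DESeq2 or limma-voom. Beside Adrm1, limma-voom called Psmc6, a base ATPase, higher (0.28, adjusted p 0.0427). These were 2 of the 30, where limma-voom called 10.6% of all genes tested. On leaving out 1 library the B2m and Tap2 calls held in all 16 fits, and those of Tap1, Tapbp, Irf1, Nlrc5 and Adrm1 were lost in 5, 3, 4, 6 and 11 of 16. In each of 3 fits, with the library class as a covariate, offsets for GC content or the log2 share of CT010467.1 as a covariate, B2m was the 1 gene of these 7 that kept its call. With only the 8 libraries compared the calls of Tap1 and Tap2 were kept, and those of B2m (-0.61, adjusted p 0.0548), Tapbp, Irf1, Nlrc5 and Adrm1 were lost.

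The difference between the tau effects of the 2 genotypes was tested as an interaction, Ch25h-/- minus Ch25h+/+. None of the 8 genes passed in edgeR, where 0.0338% of all genes tested did. Psmb8 came nearest, at -1.68 on the log2 scale (SE 0.32, 95% interval -2.35 to -1.01, unadjusted p 4.93e-05, adjusted p 0.0728), and ranked number 12 of all genes by p. It passed in DESeq2 (0.00157), which called 0.31% of all genes, and with no filter (0.0114), where 57 of 33997 genes were called. It did not pass in limma-voom, which called 0 of the 8 genes and 0.0338% of all genes. Psmb9 gave -1.01 (unadjusted p 0.00887, adjusted p 0.696) and Psmb5 -0.73 (unadjusted p 0.0135, adjusted p 0.852). In the fits that left out 1 library the Psmb5 value lay between -0.87 and -0.44. Psmb10, Psme1, Psme2, Psmb6 and Psmb7 lay between -0.31 and 0.09 with an adjusted p of 1. Tap1 gave -0.91 (0.434), B2m -0.76 (0.1), Irf1 -0.66 (0.334) and Nlrc5 -1.28 (0.655), none called in edgeR. DESeq2 called B2m (0.00493) and none of the other 3, and limma-voom called none of them.

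The ratio of each inducible subunit to the constitutive one whose place it takes does not use library scaling, and is given per kilobase as a percentage, with no test. In Ch25h+/+ animals Psmb8 was 2.06% ± 0.566 of Psmb5 without tau and 5.23% ± 1.52 with it, and in Ch25h-/- animals 2.53% ± 0.948 and 2.93% ± 0.506 (SD, n = 4). In Ch25h+/+ animals its geometric mean was 2.52-fold higher with tau, with no overlap. In Tau+ animals it was 0.574 of the Ch25h+/+ value without Ch25h, with overlapping libraries and with Psmb5, the denominator, lower as well. There was no overlap without Ch25h+/+ Tau+ replicate 1 (0.496 of the Ch25h+/+ value), whose ratio was 3.24% against 5.06% to 6.86% in the other 3, or without Ch25h-/- Tau+ replicate 2 (0.536). Against Psmb6 as denominator, Psmb8 stood at 4.19% ± 0.686 in Ch25h+/+ Tau+ and 1.66% ± 0.248 in Ch25h-/- Tau+, with no overlap.

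In Ch25h+/+ animals Psmb9 was 1.87% ± 0.552 of Psmb6 without tau and 3.47% ± 0.392 with it, and in Ch25h-/- animals 1.81% ± 0.282 and 1.73% ± 0.441 (SD, n = 4). The Ch25h+/+ Tau+ libraries lay above all the others. Psmb10 was 65.0% ± 9.24, 67.1% ± 6.07, 58.9% ± 3.76 and 61.0% ± 5.76 of Psmb7 in the same order, with overlap in every comparison. The catalytic positions differed in level: beta2i transcripts were more than 50% of beta2 in every library, and beta1i and beta5i transcripts were under 7% of beta1 and beta5.

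**Figure D4:**
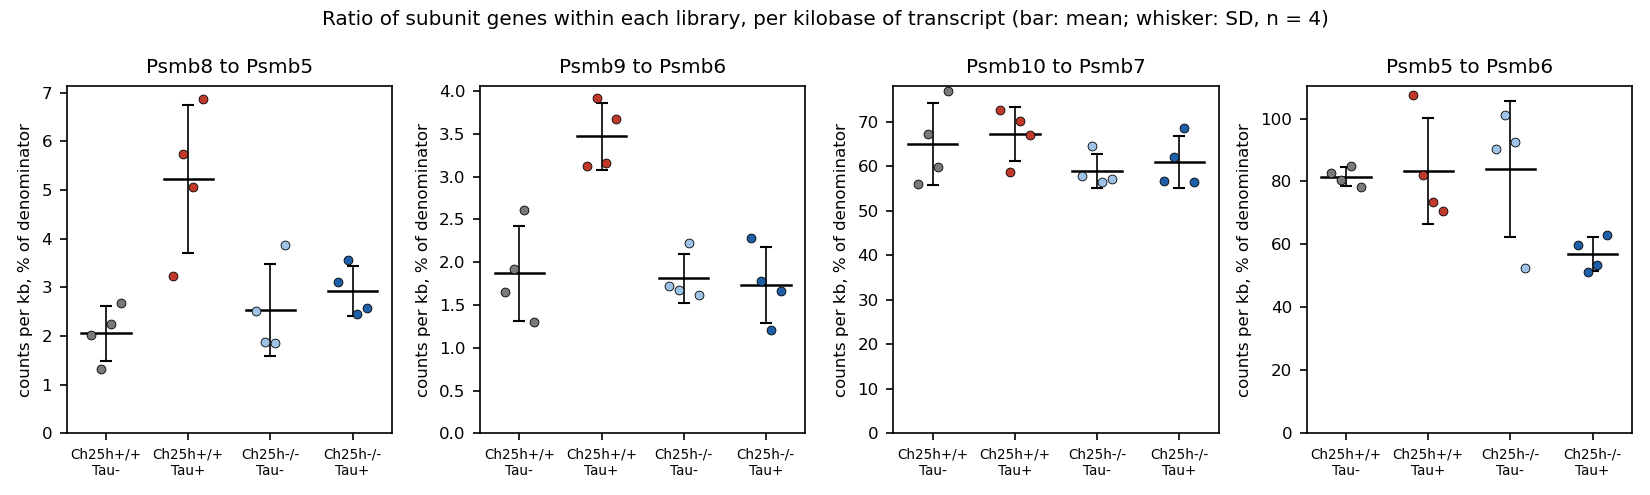
Ratio of counts per kilobase in each library, as a percentage of the denominator gene (y axis), for Psmb8 to Psmb5, Psmb9 to Psmb6, Psmb10 to Psmb7 and Psmb5 to Psmb6, by group, 1 point per library, with mean and SD (n = 4). Psmb9 to Psmb6 is highest in the 4 Ch25h+/+ Tau+ libraries, and Psmb5 to Psmb6 is 56.9% ± 5.44 in Ch25h-/- Tau+ against 81.6% to 84.0% as the means of the other groups.

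Within the constitutive set, Psmb7 kept to Psmb6 and Psmb5 did not. Psmb7 was 59.2% ± 5.29, 59.6% ± 3.05, 62.5% ± 7.37 and 61.3% ± 2.66 of Psmb6 in Ch25h+/+ without and with tau and in Ch25h-/- without and with tau (SD, n = 4). Psmb5 was 81.6% ± 2.94, 83.4% ± 16.8, 84.0% ± 21.6 and 56.9% ± 5.44 of Psmb6. In Tau+ animals this ratio did not overlap between the genotypes. The Ch25h-/- Tau- libraries ranged from 52.5% to 101.01%, with replicate 4, at 31.6 CPM of Psmb5, as low as the Ch25h-/- Tau+ libraries.

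Some microglial markers were called in the comparisons in which Psmb8 and Psmb9 were. The summed level of 6 markers (Cx3cr1, P2ry12, Tmem119, Csf1r, Aif1 and Itgam) was 200.03 to 216 CPM without tau and 248 to 298 CPM with it in Ch25h+/+ animals, and 193 to 225 and 200.3 to 229 CPM in Ch25h-/- animals. All 6 were detected. With tau in Ch25h+/+, Csf1r and Cx3cr1 were called higher, and with Ch25h loss in Tau+, these and Tmem119 were called lower. Tmem119 gave 0.02 with tau in Ch25h+/+, and P2ry12 gave 0.17 there and 0.23 with Ch25h loss in Tau+, none of them called. Csf1r and Cx3cr1 made up most of the sum. Psmb8 as a share of that sum was 1.06% ± 0.261 without tau and 2.11% ± 0.350 with it in Ch25h+/+ animals, and 1.09% ± 0.205 and 0.865% ± 0.182 in Ch25h-/- animals (SD, n = 4). The lowest Ch25h+/+ Tau+ share, 1.62%, was above the highest of the other groups, 1.32%.

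Psmb9 was 0.983% ± 0.282, 1.46% ± 0.284, 0.818% ± 0.0589 and 0.757% ± 0.258 of the microglial sum in the same order of groups, and its shares overlapped between Ch25h+/+ Tau- and Ch25h+/+ Tau+. The 5 T cell markers summed to 0.542 to 2.98 CPM over all libraries, with Cd3d at 0 counts in all Ch25h-/- libraries. Cd4 made up most of that sum, which averaged 1.86 CPM in Ch25h+/+ Tau- and 1.48 CPM in Ch25h+/+ Tau+. Cd4 was the 1 T cell marker tested, and had a log2 fold change of -1.04 with tau in Ch25h+/+, not called in edgeR. The other 4 had 0 to 10 counts per library and their highest group means in Ch25h+/+ Tau+, at 0.111 CPM for Cd3d, 0.208 for Cd3e, 0.149 for Cd3g and 0.217 for Cd8a, against 0.0263, 0.125, 0.0108 and 0.0612 in Ch25h+/+ Tau-. They did not pass the filter on low counts and were not tested. Choroid plexus markers ranged from 15.4 to 2771 CPM within and across groups. The part of microglial and T cell markers in the Psmb8 and Psmb9 results was not tested.

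**Figure D5:**
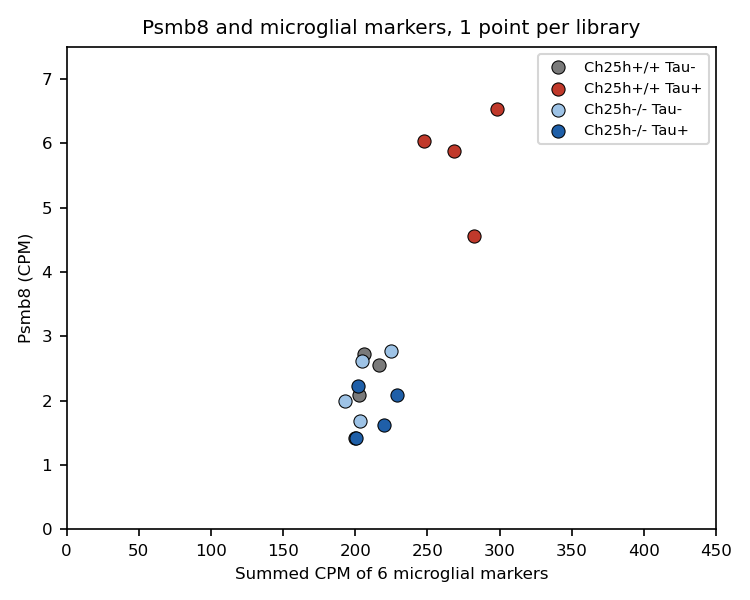
Psmb8 (CPM, y axis) against the summed CPM of 6 microglial markers (x axis), 1 point per library, coloured by group. The 4 Ch25h+/+ Tau+ libraries lie at 248 to 298 CPM of markers and 4.56 to 6.54 CPM of Psmb8, apart from the other 12, which lie at 193 to 229 and 1.42 to 2.77.

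The genes whose log2(CPM + 0.5) ran most like the mean standardised level of Psmb8, Psmb9 and Psmb10 over the 16 libraries were Dcxr (Pearson correlation 0.946), C1qa (0.939), Cd81 (0.924), Spi1 (0.917) and Ctsa (0.915). With the group means removed these fell to 0.743, 0.639, 0.706, 0.328 and 0.690. For Psmb5, Psmb6 and Psmb7 they included Rps20 (0.959), Naa38 (0.955), Ndufs3 (0.952) and H1fx (0.941), and 0.868 to 0.953 with the group means removed. The points share libraries and their depth and composition, and the correlations are descriptions.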

How the data were processed

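The authors deposited raw counts per gene for 16 libraries of mouse brain. Reads were aligned with STAR 2.7 to GRCm38 (mm10), per the submitters' processing notes; total RNA went through a SMARTer mRNA kit, per the labels' protocols. The counting program, annotation and use of strand are not given in the sources used here. Counts were whole numbers, 15530352 to 25602500 per library, which sets the counting error of Psmb8 and Psmb9. The 8 genes and all lists were chosen with earlier results of these data known.

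filterByExpr, given the 4 groups, kept 17736 genes, which were tested in edgeR 4.0.16 (R 4.3.3; quasi-likelihood F test, two-sided, TMM, 1 mean per group, all 16 libraries), with Benjamini-Hochberg adjustment over all genes at 0.05. The test was checked on simulated counts with known changes. CPM was computed on TMM-scaled sizes and per kilobase on mean protein-coding transcript length (GENCODE M21, which held 98.8% of symbols). Likeness was Pearson's correlation of log2(CPM + 0.5), taken over genes whose log2 CPM averaged 1 or more.

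Alternatives were size factors, filters, DESeq2 1.42.0, limma-voom (limma 3.58.1) with quality weights, the 8 libraries compared, a covariate for library class, GC offsets (loess, span 0.5; GC known for 99.3% of genes tested), leaving out each library, and, added after seeing the data, the log2 share of CT010467.1. Beyond the 8 genes and Tap1, Irf1 and Nlrc5, named genes were, in each list and comparison, those past the threshold, or, where none passed, the 1 with the smallest p; Tap2 and Erap1 with tau in Ch25h+/+ and Psmc6 were named after their values were seen. Some genes of the lists are not reported here. Overlap between groups means that the ranges of CPM meet.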

Additional observations from a re-analysis of the deposited data

Results flagged for a closer look

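In 44 sets of 4 libraries, a library was looked for whose gap to its nearest neighbour exceeded 0.829 of the range (Dixon's 95% value); chance gives about 1 in 20, and 4 were found. Psmb10 was 47.2 CPM in Ch25h+/+ Tau- replicate 4, against 37.3 to 38.7 in the other 3. Ch25h+/+ Tau+ replicate 1 stood apart for 2 constitutive genes, with Psmb5 at 87.0 CPM against 42.0 to 48.0 and Psmb7 at 76.4 CPM against 52.9 to 54.0. Psme2 was 8.88 CPM in Ch25h-/- Tau+ replicate 1, against 11.6 to 12.1 in the other 3.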

How the results depend on the processing

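No paired analysis was possible because the replicate numbers only follow the order of the records. Of the 5 inducible genes called with tau in Ch25h+/+ (2), 1 was left with a mean of at least 50 counts (Psmb9 did not reach that mean), with only the 8 libraries compared and with GC offsets, and 1 to 2 when a library was left out. Of those called with Ch25h loss in Tau+ (2), 1 was left with a mean of at least 50 counts, 0 with the library class and 1 with the log2 share of CT010467.1, and 2 to 3 when a library was left out; of the 3 constitutive genes (1), DESeq2 called 2 (and 8.46% of all genes, against 3.55% in edgeR), the 8 libraries, the class and the share 0, and leaving out a library 0 to 2. For the interaction (0), no filter and DESeq2 called 1. The cause of these differences was not tested. Psmb8 kept its call with tau in Ch25h+/+ in every alternative, and with Ch25h loss in Tau+ in all but the library class. Over all genes, counts moved from 277 to between 203 and 498 for tau in Ch25h+/+ (160 to 299 without 1 library), from 7 to between 2 and 28 for tau in Ch25h-/- (6 to 13), from 182 to between 0 and 1388 for Ch25h loss in Tau- (3 to 1306), from 629 to between 10 and 1883 for Ch25h loss in Tau+ (108, without Ch25h+/+ Tau+ replicate 4, to 1691, without Ch25h-/- Tau+ replicate 1), and from 6 to between 0 and 57 for the interaction (0 to 22). With GC offsets 36 of 193 calls for Ch25h loss in Tau+ were higher, against 203 of 629, and 6 of 14 for Ch25h loss in Tau-, against 38 of 182. No value past the threshold changed sign. For tau in Ch25h+/+, limma-voom gave -0.11 for Psmb5, -0.0057 for Psmb6 and -0.0051 for Psmb7. For tau in Ch25h-/-, Psme1 gave -0.0002 with size factors and with DESeq2, -0.0064 with a mean of at least 50 counts, -0.0076 in limma-voom, -0.0065 with the 8 libraries, -0.0147 with the class, -0.0255 with GC offsets and -0.0235 with the share. For Ch25h loss in Tau-, the class and the share gave 0.45 and 0.29 for Psmb9, 0.0041 and 0.0087 for Psme1, and 0.0811 and 0.0095 for Psmb5, and GC offsets 0.0751 for Psme1. Leaving out 1 library turned these log2 fold changes: with tau in Ch25h+/+, Psmb10 ran from -0.0278 to 0.27, Psmb5 from -0.15 to 0.26, Psmb6 from -0.0291 to 0.14 and Psmb7 from -0.04 to 0.15; with tau in Ch25h-/-, Psmb9 from -0.30 to 0.0865, Psmb10 from -0.0827 to 0.0435, Psme1 from -0.0534 to 0.0702, Psmb6 from -0.11 to 0.0206 and Psmb7 from -0.11 to 0.0019; with Ch25h loss in Tau-, Psmb8 from -0.11 to 0.16; for the interaction, Psmb10 from -0.29 to 0.0037 and Psme2 from -0.046 to 0.20. Without transcript length, the mean log2 ratio of Psmb8 to Psmb5 (Ch25h+/+ without and with tau, then Ch25h-/- without and with tau) was -4.55, -3.21, -4.27 and -4.01, that of Psmb9 to Psmb6 -5.03, -4.10, -5.04 and -5.13, and that of Psmb10 to Psmb7 -0.40, -0.59 and -0.54 in the last 3; length shifts a ratio by the same amount in every group. The order of levels was the same on total counts.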

Other observations

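Psmb5 departed from Psmb6 and Psmb7 in company with genes near it on chromosome 14, a pattern chosen after its values were seen. Psmb5 lies at chr14:54614119-54618022. Of the 20 genes whose log2(CPM + 0.5) ran most like the log2 ratio of Psmb5 to the mean of Psmb6 and Psmb7 over the 16 libraries, by size of Pearson's correlation, 11 (55.0%) lay on chromosome 14, which holds 3.27% of the 14147 genes considered. They started between 45.1 and 55.0 Mb, and 6 ran with the ratio and 5 against it. Among them were Slc39a2, a zinc transporter gene (0.883, or 0.820 with the group means removed), 4931414P19Rik (-0.881), Myh7, a cardiac myosin gene (0.871), Supt16, a subunit of the histone chaperone FACT (-0.843), and Prmt5, an arginine methyltransferase (0.821).

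Slc39a2 read 5.48, 2.73, 3.47 and 2.94 CPM in Ch25h-/- Tau+ and 18.3, 12.5, 17.5 and 4.96 CPM in Ch25h-/- Tau-, so Ch25h-/- Tau- replicate 4 was low for it as it was for Psmb5. The correlations share libraries and carry no p.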
